A study of Gallus gallus with 16 samples.

Results

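The proteasome and ubiquitin-conjugating enzyme genes of the chick lens were taken as every gene of the deposited peak table whose symbol starts with PSMA, PSMB, PSMC, PSMD, PSME or UBE2. This gave 66 of the 14100 gene IDs in the table. They comprise 12 core particle genes (PSMA and PSMB), 6 genes with the prefix of the cap ATPases (PSMC), 13 other cap genes (PSMD), 2 activators (PSME) and 33 UBE2 genes. The prefix is not a perfect guide to function. PSMC3IP is a cofactor of homologous recombination and no proteasome subunit. UBE2M and UBE2F conjugate NEDD8, UBE2L6 conjugates ISG15, and UBE2V1 and UBE2V2 are variants that lack the catalytic cysteine. PSMB5 and PSMB6, which encode catalytic beta subunits, were not analysed here.

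CUT&RUN, which uses an antibody-tethered nuclease to free the DNA that carries a chromatin mark, was done on lens fiber cells of embryonic day 13 White Leghorn chicks. Whole lenses were kept in organ culture at 1% oxygen (hypoxia) or 21% oxygen (normoxia), for 2 h per the labels, and 10 to 15 lenses were microdissected for each replicate. The extraction text names 0 h or 2 h of hypoxia, so it cannot be told whether the normoxia lenses had also spent 2 h in culture. H3K27ac is a histone acetylation found at active enhancers and promoters, and it has 2 libraries in hypoxia and 2 in normoxia. H3K4me3 is a histone methylation found at the start of active genes, and it has 3 libraries in hypoxia and 3 in normoxia. The nonspecific IgG control also has 3 libraries per condition and was not analysed here.

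The data are 1 peak list per mark and condition, with a position and an annotated gene for each peak but no height, score or value per library. Read depth is therefore unknown, no difference below has a replicate check, and no p-value was computed. A peak's width says how far the mark was called, not how strong it was. The H3K27ac list of hypoxia held 45734 peaks and that of normoxia 15511, a ratio of 2.95. The H3K4me3 lists held 24987 peaks in hypoxia and 22288 in normoxia, a ratio of 1.12. A longer list gives more genes a peak, so the main counts are set beside the share of all genes with the same call, for promoter states among the 11758 genes with a promoter peak of either mark.

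The proteasome is the barrel-shaped protease that degrades proteins tagged with ubiquitin. Alpha and beta subunits stack into rings that form its core, and a cap binds tagged proteins, removes the ubiquitin and threads the chain into the core with its ring of ATPases. Conjugating enzymes, or E2s, take ubiquitin from an activating enzyme (E1) and pass it to a substrate with the help of a ligase (E3). Lens fiber cells lose their organelles as they mature, and in most cells the alpha subunits of the hypoxia-inducible factors are degraded by the proteasome when oxygen is plentiful.

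H3K4me3 marked nearly all of these promoters in both conditions. Promoter peaks here are those lying 3000 bp or less, by the table's own distance, from the transcription start of their gene. Of the 66 genes, 64 had an H3K4me3 promoter in both lists, or 97.0% with a Wilson 95% interval of 89.6% to 99.2% that covers counting only. Over all genes the share was 84.3%. UBE2C, the E2 of the anaphase-promoting complex, was the exception in hypoxia, with a promoter peak of 647 bp in the hypoxia list and none in the normoxia list (all genes, 4.75%). No gene of the set had an H3K4me3 promoter in the normoxia list only, against 3.21% of all genes. The remaining 1 of the 66 had none in either list (all genes, 7.76%). UBE2T, an E2 of DNA crosslink repair, had a promoter peak of 1171 bp in hypoxia and counted as present in both lists only through its overlap with a normoxia peak that the table gives to CRY4.

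H3K27ac separated the promoters more. Of the 66 genes, 19 (28.8%, interval 19.3% to 40.6%) had an H3K27ac promoter in the hypoxia list only, and 3 (4.55%, interval 1.56% to 12.5%) in the normoxia list only. Another 34 (51.5%, interval 39.7% to 63.2%) had one in both lists and 10 in neither. Over all genes the shares were 37.2% in hypoxia only, 4.77% in normoxia only, 37.1% in both and 20.9% in neither. The hypoxia-only and normoxia-only shares thus lay near the background of these lists, and the share in both lay above it. The counts depended on the list lengths. When the hypoxia list was reduced to as many of its widest peaks as the normoxia list holds, 10 of the 66 genes were in hypoxia only and 11 in normoxia only, against 15.7% and 14.2% of all genes. Over all annotated peaks, PSMB3, PSMB7, PSMD6, UBE2A and UBE2B, in hypoxia only by their promoters, had H3K27ac in both lists. So did UBE2Z, in normoxia only by its promoter. With peaks of at least 500 bp alone, 16 genes were in both lists, against 22.4% of all genes.

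**Figure D1:**
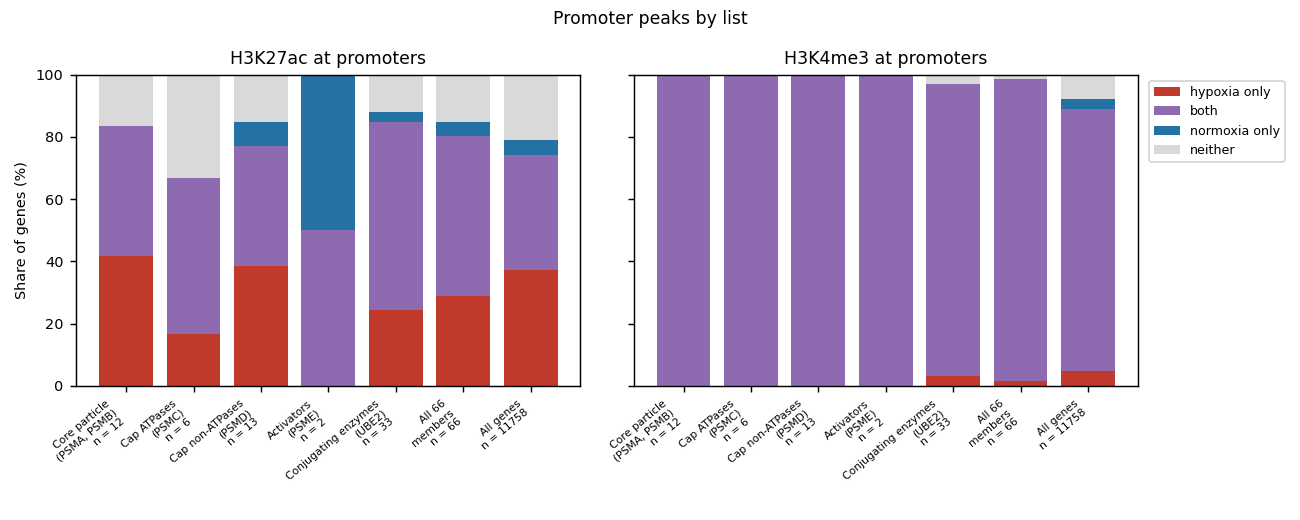
Stacked bars show the share of genes (%, vertical axis) whose promoter had a peak in the hypoxia list only, the normoxia list only, both or neither, for H3K27ac (left) and H3K4me3 (right), by subgroup and for all genes. H3K4me3 is in both lists for 64 of the 66 genes, and H3K27ac is in both for 34.

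In the core particle, 5 of 12 genes had an H3K27ac promoter in the hypoxia list only, none in the normoxia list only, 5 in both and 2 in neither. The hypoxia-only share, 41.7% with an interval of 19.3% to 68.0%, lay near the 37.2% of all genes. All 12 had an H3K4me3 promoter in both lists. The hypoxia-only genes were PSMB2 with 2153 bp of H3K27ac, PSMA7 with 992 bp, PSMB3 with 948 bp, PSMB7 with 718 bp and PSMA3 with 610 bp. PSMB7 encodes the catalytic beta subunit with trypsin-like activity, and the others are structural members of the rings. PSMA5 and PSMB4 had no H3K27ac promoter in either list.

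PSMA6, an alpha ring subunit on chromosome 5, showed the widest contrast in the core. Coordinates here and below are of the chicken build galGal6. One H3K27ac peak of 4094 bp lay over its start in hypoxia (36369326 to 36373419), against a peak of 237 bp in normoxia (36371030 to 36371266), a log2 ratio of 4.11. Its H3K4me3 promoter was 4463 bp in hypoxia and 4466 bp in normoxia. The acetyl mark thus spanned nearly the same interval as the methyl mark in the hypoxia list and a small piece of it in the normoxia list. PSMA1 had 1189 bp in hypoxia and 173 bp in normoxia, in peaks that do not overlap. Its hypoxia peak lay 1754 bp from the start and its normoxia peak 321 bp. With a 1000 bp window PSMA1 was therefore in normoxia only. PSMA4 had 679 bp in hypoxia and 303 bp in normoxia. Among peaks annotated to it, PSMA2 had 229 bp in hypoxia and 614 bp in normoxia, a log2 ratio of -1.42, again without overlap. Another hypoxia peak of 610 bp lay within the promoter it shares with MRPL32 and is annotated to MRPL32, and H3K27ac covered 18.2% of the PSMA2 H3K4me3 promoter in hypoxia and 18.1% in normoxia. PSMB1, a beta ring subunit that shares its promoter peak with TBP on chromosome 3, was broadly acetylated in both lists, with 3253 bp in hypoxia and 3821 bp in normoxia.

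The methyl mark of the core varied less. The median H3K4me3 promoter length of the 12 genes was 3189.5 bp in hypoxia and 2310.5 bp in normoxia. PSMA4 (3563 bp in hypoxia, 1470 bp in normoxia) and PSMA5 (1539 bp in hypoxia, 768 bp in normoxia) were at least 2-fold wider in hypoxia, and none was 2-fold narrower. The PSMA4 hypoxia value sums 3 peaks. The widest of them was 1408 bp, no wider than the normoxia peak of 1470 bp. The largest narrowing of summed length was in PSMB4, at a log2 ratio of -0.13. Its hypoxia value sums 2 peaks, the widest of 1175 bp, against 1 peak of 1937 bp in normoxia.

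The ATPases unfold substrates and drive them into the core. Among the 6 PSMC genes, PSMC2 had an H3K27ac promoter in the hypoxia list only, 3 had one in both lists, and PSMC3IP and PSMC5 had none that the table annotates to them. The PSMC2 peak was 2027 bp wide (chromosome 1, 13131491 to 13133517) and covered 88.7% of its H3K4me3 promoter in hypoxia, against 0 in normoxia. PSMC3 had 1978 bp of H3K27ac in hypoxia and 297 bp in normoxia, a log2 ratio of 2.74. PSMC6 had 4412 bp in hypoxia and 436 bp in normoxia, a log2 ratio of 3.34, but these are separate peaks on chromosome 5. The hypoxia peaks ran 58369890 to 58370304 and 58371051 to 58375047, and the normoxia peak 58369034 to 58369469. The wider hypoxia peak, of 3997 bp, lay 2028 to 6024 bp into the gene, so it reached beyond the 3000 bp window. The other hypoxia peak was 415 bp wide. H3K27ac covered 29.5% of the PSMC6 H3K4me3 promoter in hypoxia and 38.1% in normoxia. PSMC1 had a narrower H3K27ac promoter in hypoxia, with 341 bp in hypoxia and 484 bp in normoxia, again in peaks that do not overlap. Over all peaks annotated to PSMC1 the direction turned, with 2381 bp of H3K27ac in hypoxia and 908 bp in normoxia. On that count the median log2 ratio over all genes was 1.54. For PSMC5, H3K27ac did lie over its H3K4me3 promoter, with 1208 bp in hypoxia and 261 bp in normoxia, in peaks annotated to its neighbour FTSJ3.

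H3K4me3 was present at all 6 PSMC promoters in both lists. PSMC6 was the widest of them in hypoxia at 4650 bp, against 1143 bp in normoxia, while PSMC3 was narrower, with 2853 bp in hypoxia and 4248 bp in normoxia. The PSMC6 hypoxia peak spanned -1664 to 2985 bp around the start. Another normoxia peak, at -1481 to -791 bp, lay under that span but is not annotated to PSMC6, so the 1143 bp leave it out.

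The other cap genes did not share a direction. Of 13 PSMD genes, 5 (38.5%, near the 37.2% of all genes) had an H3K27ac promoter in the hypoxia list only, 1 in the normoxia list only, 5 in both and 2 in neither. PSMD1 and PSMD2 encode the scaffolds of the cap base, and both were in hypoxia only, with 1943 bp and 942 bp. PSMD1's peak lay on chromosome 9 (15291297 to 15293239) and covered 78.2% of its H3K4me3 promoter. The lid genes PSMD6 (1478 bp), PSMD12 (939 bp) and PSMD11 (333 bp) were also in hypoxia only. PSMD4, the ubiquitin receptor of the cap, was the normoxia-only gene. Its peak of 890 bp on chromosome 25 (278476 to 279365) covered 63.1% of its H3K4me3 promoter in normoxia, against 0 in hypoxia, although that H3K4me3 promoter was 1481 bp in hypoxia and 1411 bp in normoxia.

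Where both lists had H3K27ac at a PSMD promoter, 2 were wider in hypoxia and 3 narrower. PSMD14, the deubiquitinase that releases ubiquitin chains at the cap, had 2207 bp in hypoxia and 395 bp in normoxia, a log2 ratio of 2.48. Its normoxia peak lay 2722 bp from the start, and with a 1000 bp window PSMD14 was in hypoxia only. H3K27ac covered 49.5% of its H3K4me3 promoter in hypoxia and 0 in normoxia. The lid gene PSMD13 had 2364 bp in hypoxia and 1582 bp in normoxia. The narrower genes were the lid genes PSMD3 (389 bp in hypoxia, 921 bp in normoxia) and PSMD7 (257 bp in hypoxia, 651 bp in normoxia) and the assembly chaperone PSMD5 (659 bp in hypoxia, 1294 bp in normoxia). The other assembly chaperones of the base, PSMD9 and PSMD10, had no H3K27ac promoter in either list but an H3K4me3 promoter in both.

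Across PSMD genes the widest H3K4me3 promoter was that of PSMD12, with 7851 bp in hypoxia and 7713 bp in normoxia. PSMD11 was the 1 PSMD gene at least 2-fold wider in hypoxia, with 2214 bp against 995 bp in normoxia.

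The activators open the core in place of the cap. PSME3 had an H3K27ac promoter in the normoxia list only, a peak of 589 bp on chromosome 27 (7880308 to 7880896), and its H3K4me3 promoter was 2406 bp in hypoxia and 1899 bp in normoxia. PSME4 had 2189 bp of H3K27ac in hypoxia and 632 bp in normoxia, a log2 ratio of 1.79, with an H3K4me3 promoter of 4848 bp in hypoxia and 4718 bp in normoxia.

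**Figure D2:**
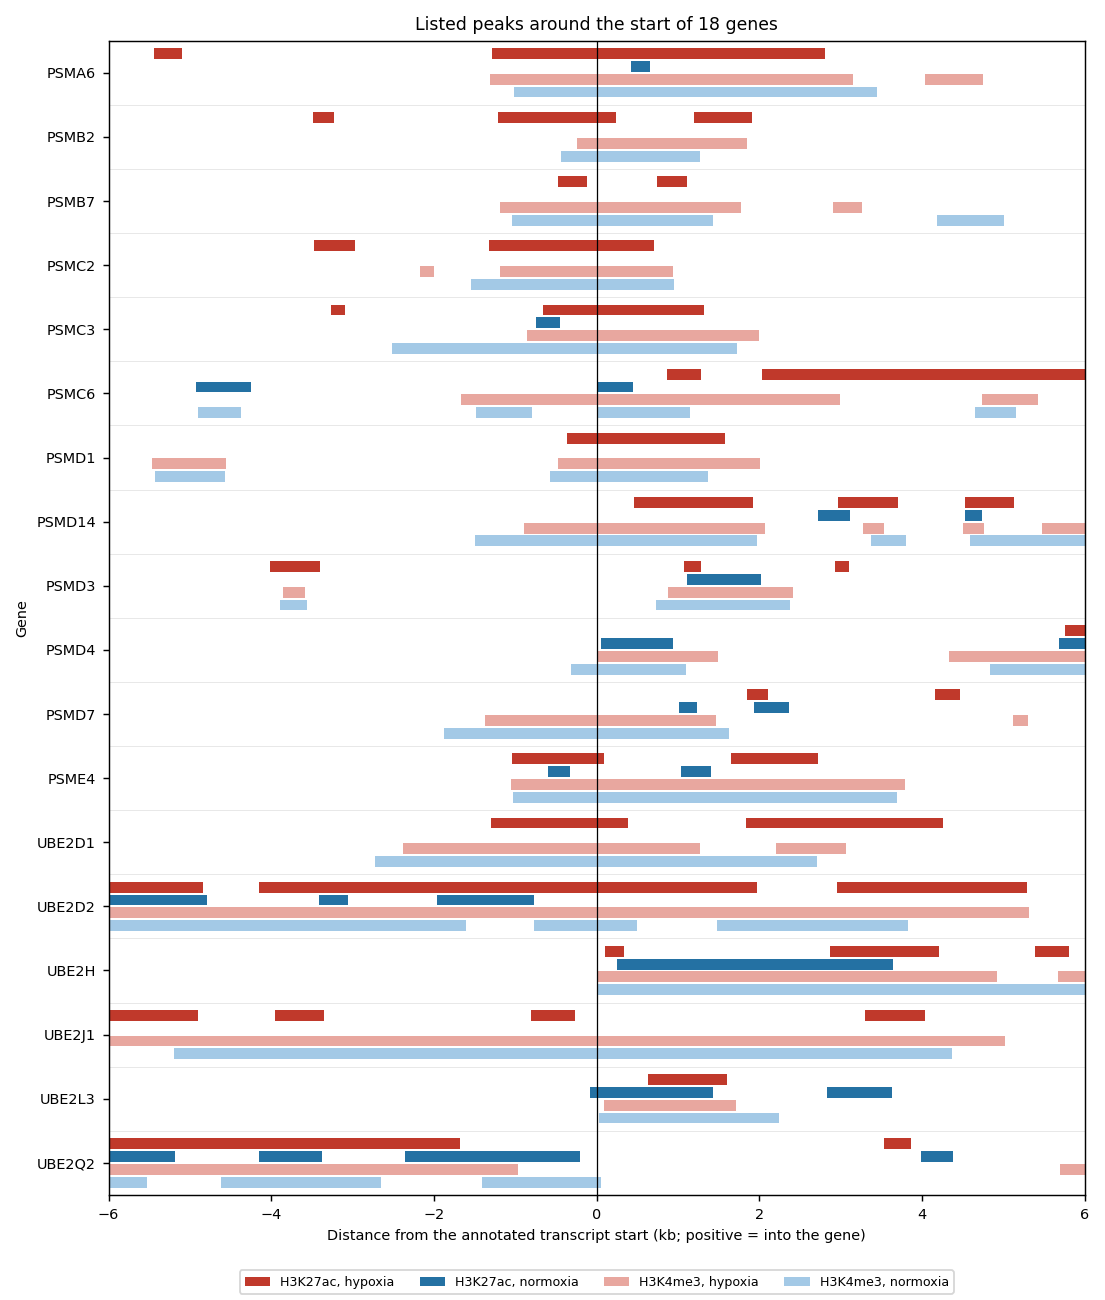
Each row is a gene, and bars mark the intervals of listed peaks by distance from an annotated transcript start (kb, horizontal axis, positive into the gene), with H3K27ac in dark and H3K4me3 in pale colours and hypoxia above normoxia. All peaks near the start are drawn whatever gene they are annotated to, cut at the edges of the plot, and PSMA6, PSMC2, PSMD1 and UBE2D1 show long H3K27ac bars in hypoxia, against a short bar or none in normoxia.

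Most conjugating enzymes, like most of all genes, had an acetylated promoter in at least 1 list. Of 33 UBE2 genes, 20 (60.6%, interval 43.7% to 75.3%; all genes, 37.1%) had an H3K27ac promoter in both lists. Another 8 had one in hypoxia only (24.2%; all genes, 37.2%), 1 in normoxia only (3.03%; all genes, 4.77%) and 4 in neither (12.1%; all genes, 20.9%). The hypoxia-only genes were UBE2D1, UBE2K, UBE2V1, UBE2G1, UBE2B, UBE2A, UBE2C and UBE2L6. UBE2D1 was the widest, with peaks of 2427 and 1677 bp on chromosome 6 (5947045 to 5949471 and 5950921 to 5952597), followed by UBE2K with 1563 bp, UBE2V1 with 1394 bp and UBE2G1 with 1099 bp. UBE2Z had 224 bp in normoxia only. Over all its annotated peaks H3K27ac covered 2890 bp in hypoxia and 577 bp in normoxia, and with a 1000 bp window UBE2Z was in neither list. UBE2E2, UBE2Q1, UBE2R2L and UBE2T had no H3K27ac promoter annotated to them.

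UBE2D1, UBE2D2 and UBE2D3 encode closely related E2s that work with many ligases, and their promoters differed. UBE2D1 had 4104 bp of H3K27ac in hypoxia and none in normoxia. UBE2D2 had 11082 bp in hypoxia and 4419 bp in normoxia, the longest summed H3K27ac promoter of the set in both lists, and its widest hypoxia peak was 6125 bp (chromosome 13, 1641521 to 1647645). These lengths sum 4 peaks in hypoxia and 3 in normoxia, around separate annotated starts. Near the upstream start the peaks were narrower in hypoxia, with 1242 and 1382 bp against 1762 and 1468 bp in normoxia. UBE2D3 had 2405 bp in hypoxia and 2284 bp in normoxia, a log2 ratio of 0.07. Its H3K4me3 promoter ran the other way, with 8813 bp in hypoxia and 14612 bp in normoxia, while over all annotated peaks it was 12962 bp in hypoxia and 14857 bp in normoxia.

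Among the 20 UBE2 genes with H3K27ac promoter peaks in both lists, 17 were wider in hypoxia and 3 narrower, a share of 85.0% wider, near the 78.8% of all genes. The largest ratios were at promoters with a small normoxia peak. UBE2J1, an E2 of the endoplasmic reticulum, had 2501 bp in hypoxia and 164 bp in normoxia, in peaks that do not overlap. UBE2QL1 had 2194 bp in hypoxia and 171 bp in normoxia, and UBE2V2 had 2030 bp in hypoxia and 207 bp in normoxia. The narrower genes were UBE2J2, also of the endoplasmic reticulum, with 460 bp in hypoxia and 1792 bp in normoxia, UBE2L3 with 981 bp in hypoxia and 2313 bp in normoxia, and UBE2H with 1573 bp in hypoxia and 3402 bp in normoxia. UBE2H is the E2 of the CTLH ligase, and over all its annotated peaks the direction turned, with 6760 bp of H3K27ac in hypoxia and 3788 bp in normoxia. On that count the median log2 ratio over all genes was 1.54.

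For the E2s of NEDD8 the summed H3K27ac promoter length was longer in hypoxia, as it was for 78.8% of all genes. UBE2M had 4422 bp in hypoxia, in 3 peaks of which the widest was 1806 bp, and 1974 bp in normoxia, in 1 peak. H3K27ac covered 55.0% of its H3K4me3 promoter in hypoxia and 60.5% in normoxia. UBE2F had 1636 bp in hypoxia and 1349 bp in normoxia, in 2 peaks each. Of these, 1 was wider in hypoxia (935 bp against 460 bp) and 1 narrower (701 bp against 889 bp). UBE2N, which builds lysine-63-linked chains with UBE2V1 or UBE2V2, had 2761 bp in hypoxia and 1844 bp in normoxia. UBE2S, which extends chains for the anaphase-promoting complex, had 2118 bp in hypoxia and 592 bp in normoxia. UBE2R2, a partner of cullin ligases on chromosome Z, had 1681 bp in hypoxia and 1047 bp in normoxia.

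The UBE2 genes also held the widest H3K4me3 promoters, with a median of 4292 bp in hypoxia and 3938.5 bp in normoxia, against 2410 bp in hypoxia and 2245 bp in normoxia over all genes. UBE2O, a hybrid of E2 and ligase, had a single H3K4me3 peak of 18830 bp in hypoxia (chromosome 18, 4377737 to 4396566) and of 15038 bp in normoxia (4378179 to 4393216). UBE2Q2 had 16311 bp in hypoxia and 3437 bp in normoxia, a log2 ratio of 2.25. The ratio rests on the window, because a normoxia peak of 12145 bp (chromosome 10, 3978629 to 3990773) lay under the same span as the hypoxia peak (3974075 to 3990385) but began 5524 bp from the start. Over all peaks annotated to UBE2Q2, H3K4me3 covered 19400 bp in hypoxia and 15582 bp in normoxia. Its H3K27ac promoter was 7363 bp in hypoxia and 2543 bp in normoxia, and over all annotated peaks H3K27ac covered 17952 bp in hypoxia and 8113 bp in normoxia. UBE2S had the largest H3K4me3 ratio, 2.41 on the log2 scale, from 1637 bp in hypoxia and 307 bp in normoxia. The hypoxia value sums 3 peaks, and the normoxia value is 1 peak lying 1719 to 2025 bp past an annotated start. With a 1000 bp window, or with peaks of at least 500 bp, UBE2S was in hypoxia only for H3K4me3. UBE2H had 4901 bp in hypoxia and 8987 bp in normoxia within the window. A further hypoxia peak of 7562 bp lay beyond it, and over all annotated peaks H3K4me3 covered 13242 bp in hypoxia and 13111 bp in normoxia.

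**Figure D3:**
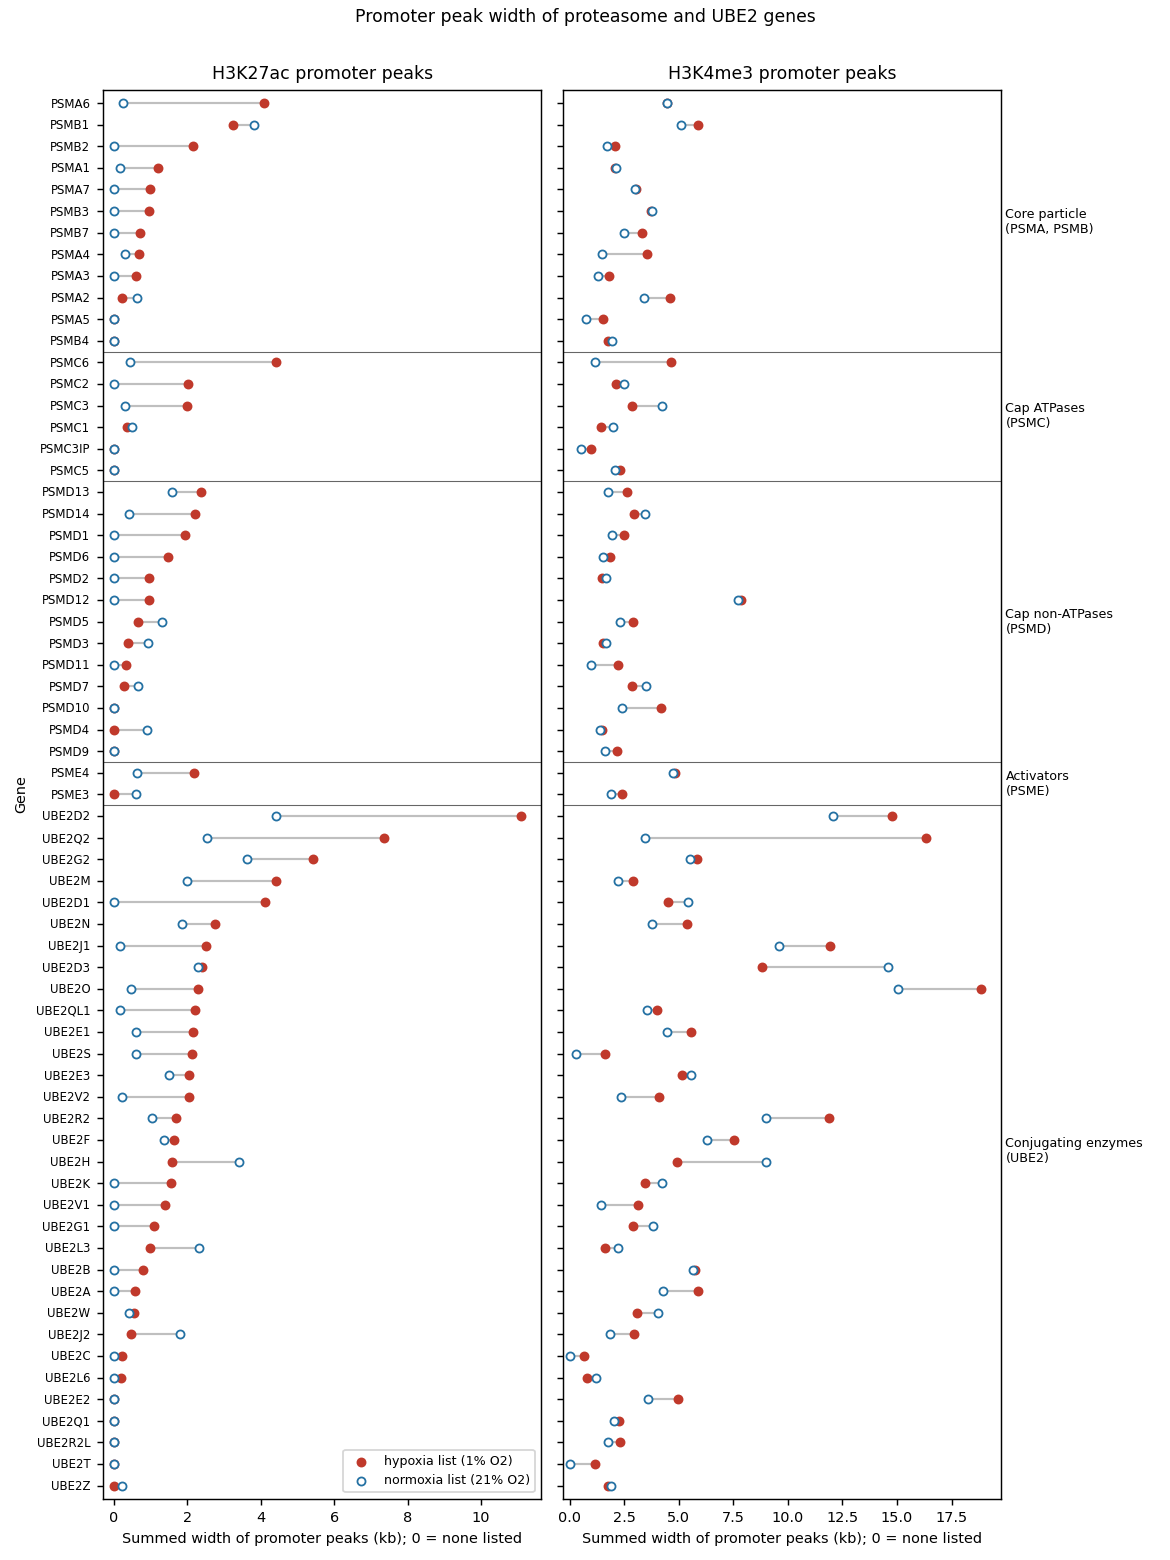
Summed promoter peak width (kb, horizontal axis) is drawn for the genes reported here (rows, by subgroup), with H3K27ac on the left and H3K4me3 on the right, filled points for hypoxia, open points for normoxia and 0 where a list has no promoter peak. UBE2D2 has the longest summed H3K27ac promoter, with 11082 bp in hypoxia and 4419 bp in normoxia.

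For H3K27ac the share of wider promoters and the median ratio of the set lay near those of all genes. Of the 34 genes with H3K27ac promoter peaks in both lists, 25 were wider in hypoxia and 9 narrower, and 17 were at least 2-fold wider. Over all genes 78.8% were wider and 51.5% at least 2-fold wider. The median log2 ratio of hypoxia over normoxia was 0.92 in the set and 1.04 over the 4159 genes with both. At least 2-fold narrower were 6 of the 34 (PSMA2, PSMD3, PSMD7, UBE2H, UBE2J2 and UBE2L3), against 7.0% of all genes. Of these, PSMA2 has the hypoxia peak annotated to MRPL32, and UBE2H and PSMD7 were wider in hypoxia over all annotated peaks (PSMD7, 3794 bp in hypoxia and 1097 bp in normoxia). By subgroup the median ratio was 1.16 in the core (5 genes), 2.74 in the ATPases (3 genes), -0.97 in the other cap genes (5 genes) and 0.92 in the UBE2 genes (20 genes). The medians of the ATPases and the other cap genes rest on the window. The wider PSMC6 hypoxia peak, of 3997 bp, began 2028 bp from the start. The other PSMC6 hypoxia peak was 415 bp, against 436 bp in normoxia. Over all annotated peaks PSMD6 had 21396 bp in hypoxia and 6870 bp in normoxia, while PSMD3 and PSMD5 remained narrower in hypoxia. For H3K4me3 the 63 genes measured in both lists had a median log2 ratio of 0.27, against 0.12 over 9754 genes. Of the 63, 42 were wider in hypoxia (all genes, 61.4%). At least 2-fold wider were 7 (all genes, 7.17%), namely PSMA4, PSMA5, PSMC6, PSMD11, UBE2Q2, UBE2S and UBE2V1, and none was 2-fold narrower (all genes, 3.2%). For PSMA4 and UBE2S the hypoxia length sums 3 peaks.

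How much of each H3K4me3 promoter lay under H3K27ac joins the marks in a single value per gene. Among the 63 genes with an H3K4me3 promoter peak annotated to them in each list, which leaves out UBE2T, the median share was 29.6% in hypoxia and 6.97% in normoxia, and over all genes it was 27.6% in hypoxia and 0 in normoxia. The share was above 0 in 52 genes in hypoxia and 36 in normoxia, against 75.4% of all genes in hypoxia and 47.2% in normoxia. It was higher in hypoxia in 40 genes (all genes, 64.6%), lower in 17 (all genes, 15.7%) and equal in 6. It exceeded 50% in 19 genes in hypoxia (all genes, 26.3%) and in 10 in normoxia (all genes, 7.26%). By subgroup the median was 20.3% in hypoxia and 0 in normoxia for the core. For the 6 PSMC genes it was 38.1% in hypoxia and 9.70% in normoxia. They include PSMC3IP, which is no proteasome subunit and had 0 in each list. The median was 14.2% in hypoxia and 0 in normoxia for the other cap genes, and 38.1% in hypoxia and 14.2% in normoxia for the UBE2 genes.

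Single genes ran both ways. PSMA6 had 91.7% in hypoxia and 5.31% in normoxia, PSMC3 had 69.3% in hypoxia and 6.99% in normoxia, and PSMD6 had 77.3% in hypoxia and 0 in normoxia. UBE2J2 had 15.6% in hypoxia and 79.3% in normoxia, PSMD3 had 14.2% in hypoxia and 55.9% in normoxia, and PSMB1 had 55.1% in hypoxia and 74.6% in normoxia. PSMD13 was high in both lists, with 80.4% in hypoxia and 90.8% in normoxia. Of the genes called without an H3K27ac promoter, UBE2Q1 had 0 in hypoxia and 25.1% in normoxia, in a peak annotated to its neighbour CHRNB2.

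**Figure D4:**
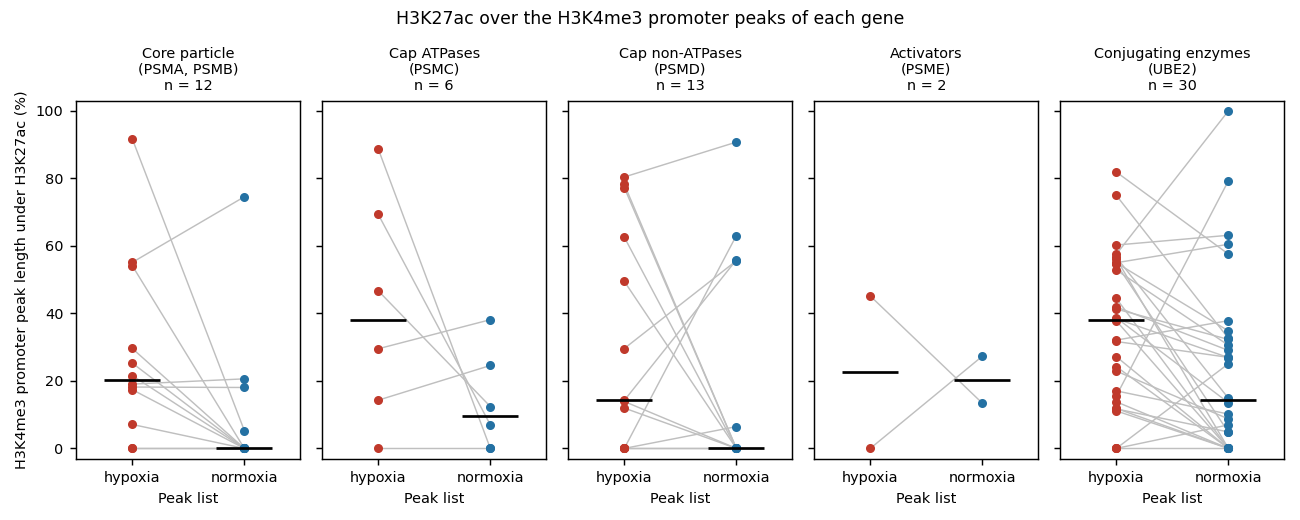
Each point is a gene, and the vertical axis is the share (%) of its H3K4me3 promoter peak length that lies under H3K27ac, in the hypoxia list (left of each panel) and the normoxia list (right), with grey lines joining a gene and black bars at the median. The UBE2 median is 38.1% in hypoxia and 14.2% in normoxia, and every panel has lines that slope each way.

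Features of the promoter peaks other than width lay near those of all genes by some counts and apart from them by others. An H3K4me3 promoter peak touched the annotated start in 57 of 65 genes in hypoxia and 53 of 63 in normoxia (all genes, 84.7% in hypoxia and 81.3% in normoxia). H3K27ac touched it in 21 of 53 genes in hypoxia and 8 of 37 in normoxia (all genes, 39.4% in hypoxia and 32.3% in normoxia). Where a start could be worked out, H3K4me3 reached farther into the gene than upstream in 32 of 37 genes in hypoxia and 28 of 35 in normoxia (all genes, 75.8% in hypoxia and 76.2% in normoxia). In 20 of the 65 genes with an H3K4me3 promoter peak that peak was also annotated to another gene (all genes, 21.9%), so its mark cannot be assigned to either alone. Among these pairs are PSMC2 with DNAJC2, PSMC6 with ERO1A, PSMD13 with SIRT3, PSMD2 with ECE2, PSME3 with BECN1 and UBE2G2 with SUMO3.

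With promoter peaks included, the table annotated 240 H3K27ac peaks to these genes in hypoxia, covering 254 kb, and 109 in normoxia, covering 83.9 kb. Of these, 153 in hypoxia and 58 in normoxia lay outside the promoter window. The share inside it was 36.25% in hypoxia (whole list, 27.4%) and 46.8% in normoxia (whole list, 37.3%). Of all the annotated peaks, promoters included, the UBE2 genes held 156 in hypoxia and 74 in normoxia, and the core 29 in hypoxia and 11 in normoxia. The ATPases held 10 in hypoxia and 4 in normoxia, the other cap genes 42 in hypoxia and 17 in normoxia, and the activators 3 in each. For H3K4me3 the totals were 155 peaks in hypoxia and 132 in normoxia. Of the set's hypoxia H3K27ac peaks 29.2% overlapped a normoxia peak (whole list, 19.3%), and of its normoxia peaks 71.6% overlapped a hypoxia peak (whole list, 60.7%). For H3K4me3 the overlap was 63.2% of hypoxia peaks (whole list, 58.8%) and 78.0% of normoxia peaks (whole list, 66.5%).

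A few genes held many of the outlying peaks. UBE2R2 had 10 H3K27ac peaks beyond the window in hypoxia, covering 15287 bp, and 6 in normoxia, covering 3393 bp, and the widest hypoxia peak was an intronic one of 4733 bp (chromosome Z, 7311668 to 7316400). UBE2E3 had 14 in hypoxia (9698 bp) and 1 in normoxia (1056 bp), and a distal intergenic peak 108 kb from its start in hypoxia, 3586 bp wide, overlapped the one of 1056 bp in normoxia. PSMD6 had 14 in hypoxia (19918 bp) and 8 in normoxia (6870 bp). Of the PSMD6 peaks, 8 in hypoxia and 6 in normoxia lay inside PRICKLE2, so nearest-gene annotation alone ties them to PSMD6.

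Other genes of the pathway were counted in the same way. A list of 73 further genes covered proteasome assembly, ubiquitin activation and conjugation, delivery and cullin ligases. Of these, 63 occur by name among the annotated genes, 62 had a promoter peak, and all 62 had an H3K4me3 promoter in both lists. Their H3K27ac promoter was in hypoxia only in 19, in normoxia only in 1 (DDI2, a protease that activates NFE2L1), in both in 38 and in neither in 4, beside the 37.2%, 4.77%, 37.1% and 20.9% of all genes given above. Among 12 assembly and regulation genes, 5 were in hypoxia only, including the core assembly factors PSMG1 (2542 bp), POMP (1369 bp) and PSMG4 (1203 bp) and the transcription factor NFE2L1 (1015 bp), which drives proteasome genes when the proteasome is inhibited. Of 5 cap partners, the ubiquitin receptor ADRM1 had 3439 bp in hypoxia and 1643 bp in normoxia, the deubiquitinase UCHL5 had 3067 bp in hypoxia and 930 bp in normoxia, and the deubiquitinase USP14 had 1606 bp in hypoxia and none in normoxia. The ubiquitin genes UBB (3593 bp in hypoxia, 528 bp in normoxia) and RPS27A (2155 bp in hypoxia, 374 bp in normoxia) were marked in both. In the ligase that recognises hypoxia-inducible factors, VHL had 1990 bp in hypoxia and 256 bp in normoxia, while CUL2 (1756 bp) and RBX1 (1455 bp) were in hypoxia only. Of the 16 genes in that list of cullin ligases and their partners, 4 were in hypoxia only and 12 in both. Its median log2 ratio was 0.81, against 1.04 over all genes. FBXW7 (443 bp in hypoxia, 778 bp in normoxia), BTRC (764 bp in hypoxia, 1745 bp in normoxia) and CAND1 (1471 bp in hypoxia, 1633 bp in normoxia) were narrower in hypoxia. CDC34, a conjugating enzyme without the prefix, had 703 bp in hypoxia and 2261 bp in normoxia.

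Markers of the labelled cell type were present. Of 17 lens fiber genes 16 had a promoter peak, with H3K27ac in both lists in 14 and in hypoxia only in 2. Of 8 lens epithelium genes 6 had one, with H3K27ac in hypoxia only in 4 and in both in 2, and of 18 retina, blood and periocular genes 8 had one, with H3K27ac in hypoxia only in 5, in normoxia only in 1 (TIE1), in both in 1 and in neither in 1. In this last list 4 genes, including ELAVL4, NEFL and DCN, had an H3K4me3 promoter in both lists. ELAVL4 also had 1725 bp of H3K27ac in hypoxia and 881 bp in normoxia. No promoter peak of either mark was annotated to OPN1SW, RCVRN, HBBA, HBAA, TAL1, PECAM1, CDH5 or TYR. These mark retina, blood, vessels and pigment cells. Only 13 of the 18 symbols occur among the annotated genes, so some of these are missing names, not genes seen without the marks. Of the 8 epithelium symbols 6 occur, and FOXE3 is not among them. Whether retina, blood, periocular or lens epithelial cells had a part in the hypoxia-only promoters described above was not tested.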

How the data were processed

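The authors deposited 1 table of CUT&RUN peaks. Per the file headers it gives start and end positions, a gene, and a distance to the transcription start, a signed score in bp that the authors deposited. STAR, DESeq2, MACS2, ChIPseeker and the build galGal6 are named in the submitters' processing notes, without version or role. Sources used here do not state pooling, thresholds or control use. Starts are printed 1-based. Of 124414 lines, 15894 repeat an interval and were counted once. A promoter counted as in both lists if each had a peak within 3000 bp, or if its peak overlapped the other list by at least 1 bp. The table's own promoter class reaches 5000 bp. Widths were summed per gene, over all of its annotated starts. Genes were named by list membership, extreme ratios and known role. Members and lists were chosen with earlier results of these data known. Python 3.11.15 with pandas 2.3.3, numpy 2.4.6, scipy 1.17.1 and matplotlib 3.10.9 was used, and overlaps were checked with bedtools 2.31.1. The method was tested on simulated data and recovered 2000 of 2000 gene states. Each simulated peak belonged to 1 gene and lay clear of the window edge. The test therefore did not cover peaks given to a neighbour or at that edge. Of the symbols with these prefixes in a RefSeq gene table, 64 of 67 matched. A planned motif count was not run for lack of sequence. Alternatives varied the window, overlap, peak width, list length and gene identity. Values of 1 gene of the set and of some markers are not reported here, though counts include them.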

Additional observations from a re-analysis of the deposited data

How the results depend on the processing

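Under the alternatives, 83 recomputed values stayed within 1.5 times the reported count, or within the interval of the reported median, and 9 did not. Many of the 83 had little room to move, because several counts were 0 in every setting. Merging equal symbols changed no promoter state, and a 50% overlap changed the H3K4me3 state of 1 gene and the H3K27ac state of none. The tally is therefore no measure of stability. The median ratio of the whole set changed sign for neither mark. The subgroup medians were not recomputed, and those of the ATPases and the other cap genes rest on the window. For H3K27ac, 10 genes were in hypoxia only and 11 in normoxia only when the hypoxia list was reduced to its widest peaks, against 19 and 3 with the full lists. With peaks of at least 500 bp, 16 genes were in both lists and 5 in normoxia only, against 34 and 3. For H3K4me3, hypoxia-only genes numbered 2 with a 50% overlap, 2 with a 1000 bp window and 3 with peaks of at least 500 bp, against 1. Conjugating enzymes made up 2 of these in the settings of a 50% overlap and of a 1000 bp window. The median log2 ratio of the set ranged between 0.61 and 1.43 for H3K27ac and between 0.16 and 0.27 for H3K4me3. The H3K27ac state changed for 11 genes with the 1000 bp window, 9 with all annotated peaks, 17 with the widest peaks and 24 with peaks of at least 500 bp. Among genes in hypoxia only, PSMA3, PSMB7, PSMD11, UBE2C and UBE2L6 were in neither list with the widest peaks or with peaks of at least 500 bp. PSMA7, UBE2A, UBE2B and UBE2K were also in neither with the widest peaks. A promoter required to overlap between lists, an alternative chosen after seeing the data, changed the H3K27ac state of 5 genes (PSMA1, PSMA2, PSMC1, PSMC6 and UBE2J1), and starts worked out from the distances, also chosen then, changed none. No paired analysis was possible because each mark and condition has 1 list with no replicate columns, and leaving out replicates was not run for the same reason. Depth is unknown, so a peak missed for lack of reads and a mark that was not there cannot be told apart.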

Other observations

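UBE2R2 on chromosome Z and UBE2R2L on chromosome W had different values for both marks. UBE2R2 had an H3K4me3 promoter of 11895 bp in hypoxia and 8995 bp in normoxia with H3K27ac in both lists, and UBE2R2L had 2316 bp in hypoxia and 1742 bp in normoxia with no H3K27ac promoter in either. Sources used here do not state how reads that map to similar copies were treated.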
